A study of Mus musculus with 6 samples.

Results

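The genes described here are 10 genes of osteoclast fusion, bone resorption and the RANK ligand axis, taken by symbol from the 23420 genes counted in mouse palate RNA: Acp5, Ctsk, Dcstamp, Ocstamp, Atp6v0d2, Oscar, Nfatc1, Tnfsf11, Tnfrsf11a and Tnfrsf11b. All 10 symbols were in the files. The tissue was the part of the palate that will become the anterior hard palate, dissected from C57BL/6 embryos at E14.5, with 3 RNA sequencing libraries per genotype. The controls were Shox2Cre/+;Nkx2.5F/F and the mutants Shox2Cre/-;Nkx2.5F/F. Both groups therefore carried a Cre allele at Shox2 and a homozygous floxed Nkx2.5 gene, and they differed in whether the other Shox2 allele was present. The libraries titled WT are therefore not from wild-type embryos. The number of embryos behind each library is not stated in the labels. The comparison asks what loss of the homeobox gene Shox2, which is active in anterior palate mesenchyme, changes in tissue that will form the bony palatine process.

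Osteoclasts are multinucleated cells that dissolve bone. They arise when precursors of the macrophage lineage receive macrophage colony-stimulating factor and RANK ligand (Tnfsf11), which osteoblast-lineage cells present to the receptor RANK (Tnfrsf11a) on the precursor. Osteoprotegerin (Tnfrsf11b) is a soluble decoy that binds the ligand. Signalling from RANK, helped by immunoreceptor partners such as Oscar, induces the transcription factor Nfatc1, which turns on the fusion proteins Dcstamp and Ocstamp, the proton pump subunit Atp6v0d2, the protease Ctsk and the phosphatase Acp5.

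Sequence before the start site is shown for the resorption enzymes Ctsk and Acp5 and for the ligand Tnfsf11. All 3 genes were called lower in the mutants, though Ctsk and Acp5 were not with the Y-linked covariate described below. By their known roles they stand for the responding cell and the instructing cell, to which bulk RNA does not assign them. The sequences are RefSeq promoter windows on GRCm38.p6, read 5′ to 3′ along the gene. Capitals mark a match to any of 5 motifs searched on both strands: TGGAAA (NFAT core), TGANTCA (AP-1), GAGGAA (PU.1), CACGTG (MITF E-box) and AACCACA (RUNX). Ctsk is on the plus strand at chr3:95498960-95499209, Acp5 on the minus strand at chr9:22130609-22130848, and Tnfsf11 on the minus strand at chr14:78308044-78308293.
Ctsk: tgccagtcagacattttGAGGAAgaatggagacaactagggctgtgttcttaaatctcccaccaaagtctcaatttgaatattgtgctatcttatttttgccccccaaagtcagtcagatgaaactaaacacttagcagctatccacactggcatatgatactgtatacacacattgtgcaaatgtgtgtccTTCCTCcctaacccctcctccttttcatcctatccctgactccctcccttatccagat
Acp5: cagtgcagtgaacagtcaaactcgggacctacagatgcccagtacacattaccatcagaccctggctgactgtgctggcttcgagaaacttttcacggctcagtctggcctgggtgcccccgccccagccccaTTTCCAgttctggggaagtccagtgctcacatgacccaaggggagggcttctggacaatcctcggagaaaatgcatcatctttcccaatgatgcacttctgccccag
Tnfsf11: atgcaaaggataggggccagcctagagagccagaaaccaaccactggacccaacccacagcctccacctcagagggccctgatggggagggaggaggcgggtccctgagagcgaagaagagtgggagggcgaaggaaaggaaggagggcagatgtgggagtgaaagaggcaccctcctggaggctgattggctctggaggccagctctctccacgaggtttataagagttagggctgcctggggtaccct
Of the 10 genes, 5 had a window in the table, with 7 windows among them because Acp5 has 3 annotated starts. The Acp5 window shown is the 1 of its 3 that holds a searched motif, and 10 bases of annotated exon at its end were left out. The NFAT core was in 2 of the 7 windows (Acp5, starting 117 bases before the start site, and Oscar), beside 18.6% of all 32851 windows of 250 bases. The PU.1 motif was in 2 (Ctsk, at 233 and 58 bases before the start site, and Oscar), beside 23.3% of all windows. AP-1 (6.75% of all windows), MITF E-box (6.02%) and RUNX (4.4%) letters were in none of the 7. The Tnfsf11 and Tnfrsf11a windows held none of the 5 motifs.

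Total counts were 81950407 to 134813429 in the controls and 52668242 to 53331397 in the mutants, so depth and genotype coincide. Shox2 was 68.2 to 88.2 CPM (counts scaled by TMM to a library size of 1e6) in the controls and 3.13 to 5.3 in the mutants. Libraries also differed by sex: Xist, the RNA of the inactive X chromosome, was 232, 843 and 692 CPM in the 3 controls, by replicate number, and 0.291, 0.333 and 0.261 in the mutants. The Y-linked gene Ddx3y was present in every library, at 85.7, 14.3 and 35.2 CPM in the 3 controls and 73.7 to 103 in the mutants. Each control thus held transcripts of both sexes, while the mutants held almost no Xist, and the sex makeup of the libraries and the genotype cannot be told apart fully. Values from a fit with the summed Y-linked level as a covariate are given where that fit changed a count of calls or the call on a gene named with its values. Palate mesenchyme was well represented, with the 8 markers Prrx1, Twist1, Pdgfra, Osr2, Msx1, Col1a2, Col3a1 and Vim summing to 8103 to 13204 CPM in the controls and 10463 to 11119 in the mutants.

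Osteoclast fusion and resorption genes fell in the mutant palate, and so did the ligand. Of the 10 genes, all of which passed the filter on low counts, 6 were lower (Acp5, Ctsk, Dcstamp, Ocstamp, Atp6v0d2 and Tnfsf11), 1 was higher (Tnfrsf11a) and 3 did not pass the test (Oscar, Nfatc1 and Tnfrsf11b), by edgeR's quasi-likelihood test at an adjusted p of 0.05. Among all 16604 tested genes 21.7% were called lower, 24.1% higher and 45.8% in either direction, so a call alone is common in this comparison. The sizes were less common: 4 of the 10 genes were called and over 4-fold lower, beside 1.37% of all tested genes. These 4 were Dcstamp, Ocstamp, Atp6v0d2 and Tnfsf11. Ocstamp passed the filter only through the controls and Dcstamp through the controls and 1 mutant library, so their falls were partly fixed by it. The 10 genes were also chosen with earlier results known, so this share was given no test. The median log2 fold change of the 10 was -1.72, and that of all tested genes was -0.0043. In 6 of the 10 genes every mutant library lay below every control, as in 29.2% of all tested genes. In bulk tissue, fewer osteoclasts and less of these transcripts per osteoclast cannot be told apart.

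**Figure D1:**
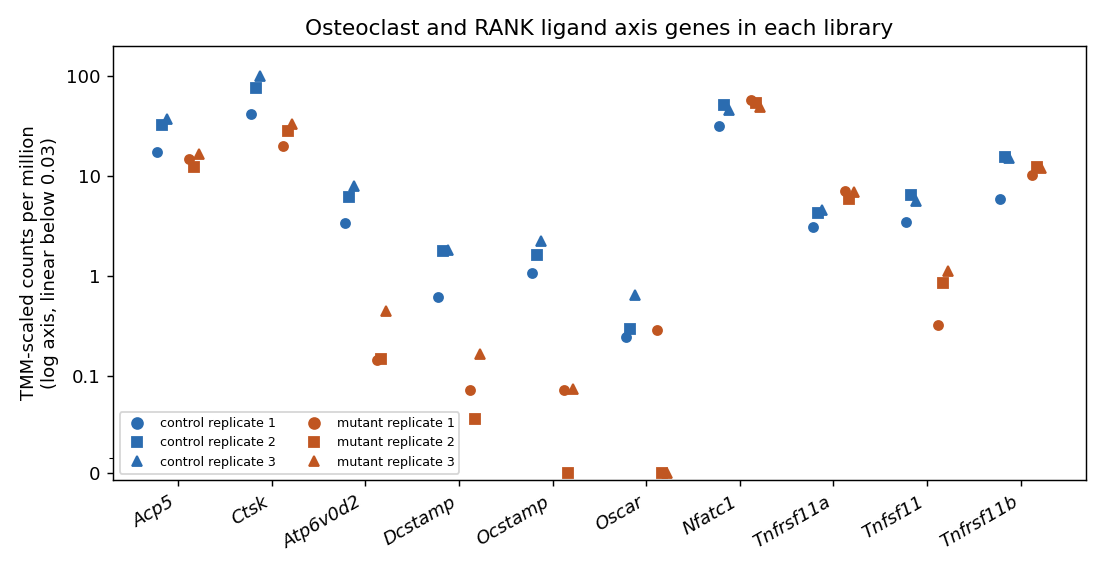
TMM-scaled CPM (vertical log axis, linear below 0.03) of the 10 genes along the horizontal axis, with 1 point per library, blue for control and orange for mutant, and the marker shape for the replicate number. Dcstamp, Ocstamp and Atp6v0d2 show the wide gaps between groups, Acp5 a narrow one from 16.6 to 17.4, and Nfatc1, Oscar and Tnfrsf11b overlap.

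The fusion genes were almost undetected in the mutants. Dcstamp, a membrane protein that precursors need to fuse, had 50, 178 and 244 counts in the 3 controls (in order of replicate number, here and below) and 4, 2 and 9 in the mutants, or 0.618, 1.76 and 1.84 CPM against 0.0727, 0.037 and 0.168. The mutant libraries were all below the controls, with the nearest pair at 0.168 and 0.618 CPM. The mean went from 1.41 ± 0.685 to 0.0924 ± 0.0675 CPM (SD, n = 3 each). The fit put the mutants 15.1-fold lower (log2 fold change -3.91, SE 0.67), with an edgeR adjusted p of 0.00331. Ocstamp, a related multi-pass protein of the same step, had 86, 165 and 300 counts in the controls and 4, 0 and 4 in the mutants. Its level was 1.06, 1.63 and 2.26 CPM in the controls and 0.0727, 0 and 0.0745 in the mutants, with no overlap and 1 mutant library without a count. On the log2 scale Ocstamp fell by 5.03 (SE 0.73, edgeR adjusted p = 0.00167). With 3 counts worth 0.0545 to 0.0558 CPM in the mutants, these low values sit close to the counting limit, and the fitted fold of Ocstamp is uncertain beyond its SE. Ocstamp passed the filter on low counts only through the controls, and Dcstamp and Oscar through the controls and 1 mutant library each, so a difference in them was partly fixed by the filter.

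Atp6v0d2, the osteoclast form of the d subunit in the membrane sector of the proton pump that acidifies the bone surface, fell in the same way. It had 271, 629 and 1054 counts in the controls and 8, 8 and 24 in the mutants, or 3.35, 6.23 and 7.95 CPM against 0.145, 0.148 and 0.447. The groups were far apart, and mutant replicate 3 was about 3 times the other 2 mutants. The log2 fold change was -4.56 (SE 0.55, edgeR adjusted p = 0.000841), a 23.6-fold lower level. Atp6v0d2 was lower in each of 19 alternative analyses, between -5.31 and -4.01.

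The resorption enzymes fell by less. Ctsk, the collagen-degrading cysteine protease of osteoclasts, was 41.6, 76 and 99 CPM in the controls and 19.8, 28.2 and 32.9 in the mutants. The groups did not overlap, but control replicate 1 was closer to the mutants than to control replicate 3. The log2 fold change of Ctsk was -1.42 (SE 0.32, edgeR adjusted p = 0.00974), a 2.68-fold lower level, and it was not called with the Y-linked covariate (-0.94, adjusted p = 0.14). Acp5, tartrate-resistant acid phosphatase, was 17.4, 32.7 and 37.2 CPM in the controls and 14.7, 12.4 and 16.6 in the mutants. Control replicate 1 stood just above the highest mutant. The log2 fold change of Acp5 was -1.0 (SE 0.27, edgeR adjusted p = 0.0207), and this call was lost without control replicate 2 (adjusted p = 0.0619) or 3 (0.0654), without mutant replicate 1 (0.0535) or 2 (0.0763), and with the Y-linked covariate (-0.45, adjusted p = 0.312). A noncoding transcript on the opposite strand overlaps part of the Acp5 exons, and since the strand setting of the counting is unknown its reads may not be separable.

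Among the regulators within the precursor, the receptor rose and the others did not pass. Tnfrsf11a, the receptor RANK, was 3.09, 4.26 and 4.62 CPM in the controls and 7.16, 5.86 and 7 in the mutants, with every mutant above every control (29.7% of all tested genes did so). It rose by 0.74 on the log2 scale (SE 0.21, edgeR adjusted p = 0.0226). The call on Tnfrsf11a was lost without control replicate 2 (adjusted p = 0.0526) or mutant replicate 1 (0.0512) or 3 (0.069). Nfatc1, the transcription factor downstream of RANK, which other cell types use too, was 32, 50.8 and 45.3 CPM in the controls and 58, 54.3 and 49.2 in the mutants. The groups overlapped, and the log2 fold change of 0.33 (SE 0.17) did not pass (edgeR adjusted p = 0.137). With the Y-linked covariate Nfatc1 was called higher (0.73, adjusted p = 0.0138). Oscar, a collagen-binding immune receptor that costimulates Nfatc1, had 20, 30 and 86 counts in the controls and 16, 0 and 0 in the mutants. Mutant replicate 1 overlapped the controls at 0.291 CPM and the other mutants had no count, and the log2 fold change of -2.02 (SE 1.18) did not pass (adjusted p = 0.197). Without mutant replicate 1 both remaining mutants were at 0 and Oscar was called lower (edgeR adjusted p = 0.0116). It then passed the filter on low counts only through the controls, so that call was partly fixed by the filter. By limma-voom with all 6 libraries Oscar was also called lower (adjusted p = 0.0386).

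The ligand fell while its decoy did not pass. Tnfsf11, RANK ligand, had 281, 656 and 743 counts in the controls and 18, 46 and 60 in the mutants. Its level was 3.48, 6.5 and 5.61 CPM in the controls and 0.327, 0.851 and 1.12 in the mutants, with no overlap. The mean went from 5.19 ± 1.55 to 0.765 ± 0.402 CPM (SD, n = 3 each), 6.79-fold lower by the fit (log2 fold change -2.76, SE 0.46, edgeR adjusted p = 0.00299). Tnfrsf11b, osteoprotegerin, was 5.93, 15.4 and 15.1 CPM in the controls and 10.2, 12.2 and 12.1 in the mutants, so that the mutants lay between control replicate 1 and the other 2 controls. Its log2 fold change of -0.08 (SE 0.34) did not pass (edgeR adjusted p = 0.862). Without control replicate 1 Tnfrsf11b was called lower (-0.42, adjusted p = 0.0418), while without control replicate 2 the estimate was 0.12 and without control replicate 3 it was 0.11, neither called.

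The balance of ligand and decoy can be read within a library, where scaling cancels. For every 100 Tnfrsf11b counts there were 58.7, 42.2 and 37.1 Tnfsf11 counts in the controls, against 3.21, 6.97 and 9.23 in the mutants. Control replicate 1, low in both genes, had the highest ratio of the 6 libraries. The log2 ratio was -1.15 ± 0.34 in the controls and -4.08 ± 0.79 in the mutants (SD, n = 3 each), a difference of -2.93 that is larger than the spread in either group. Being a combination of 2 of the genes chosen, it was given no test. Leaving out each library in turn gave differences from -3.25 to -2.49.

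**Figure D2:**
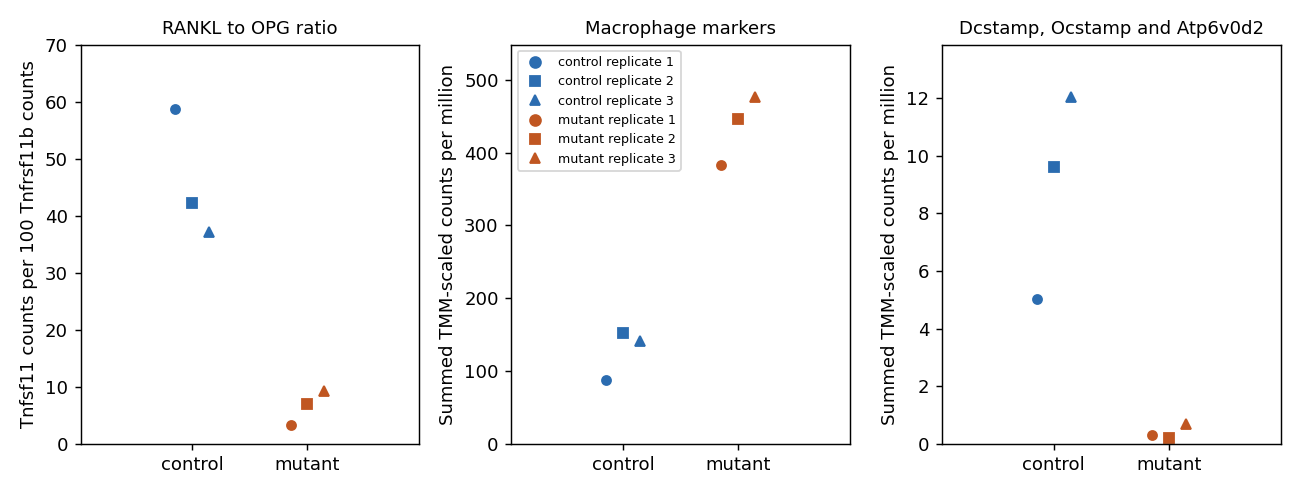
Values per library (blue control, orange mutant, marker shape for the replicate number): Tnfsf11 counts per 100 Tnfrsf11b counts at left, and summed TMM-scaled CPM of 14 macrophage markers in the middle and of Dcstamp, Ocstamp and Atp6v0d2 at right. The ratio is 37.1 or more in the controls and 9.23 or less in the mutants, and the macrophage sum is higher in every mutant while the sum of the 3 osteoclast genes is lower.

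The order of the libraries within a group was alike across these genes. For all 6 genes called lower, control replicate 1 was the lowest control and mutant replicate 3 the highest mutant. Control replicate 1 was also the lowest control for 41.6% of all tested genes and for 30.7% of all genes called lower. Mutant replicate 3 was the highest mutant for 34.5% of all tested genes and for 45.5% of all genes called lower. Osteoblast transcripts were low in the same control library: Runx2, the commitment factor of osteoblasts, was 175, 300 and 257 CPM in the controls, and Ibsp, bone sialoprotein, 303, 2020 and 1616. In the mutants Ibsp was 4.51, 23.6 and 58.6 CPM, with mutant replicate 3 again highest. Control replicate 1 also had the lowest Xist (232 CPM) and the highest Ddx3y (85.7 CPM) of the 3 controls. The part of sex makeup in the order of the libraries was not tested. Without replicate 1 of both groups, 8 of the 10 genes were called lower, Oscar and Tnfrsf11b joining the 6, and 1 higher. Calls over all genes rose too: 4509 of 16824 tested genes were then lower and 4595 higher. With all 6 libraries these were 3607 and 3999 of 16604. Oscar then passed the filter only through the controls, so its call was partly fixed by the filter.

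**Figure D3:**
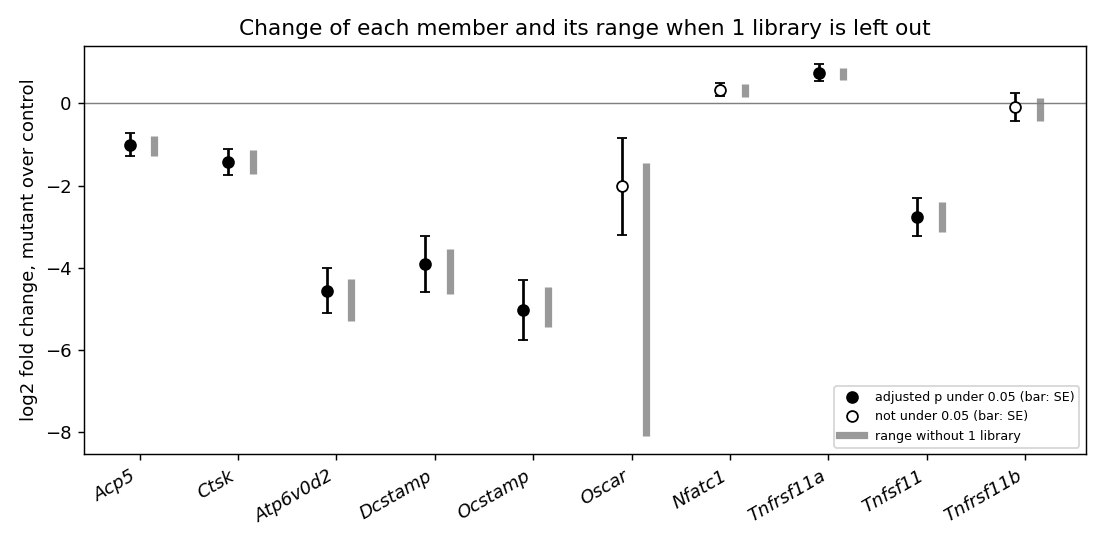
Log2 fold change of mutant over control for each of the 10 genes (vertical axis, circles with SE bars, filled where the adjusted p was under 0.05) and, in grey, the range of the estimate when each library was left out in turn. The range of Oscar reaches -8.09 without mutant replicate 1, Tnfrsf11b crosses 0, and the 6 genes called lower stay below 0.

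Per kilobase of exon, Ctsk was the most abundant of the 10 genes in the controls at 47.8 ± 19.1 CPM per kb (SD, n = 3), followed by Acp5 at 14.4 ± 5.11. Nfatc1 (5.72 ± 1.29) and Tnfrsf11b (4.31 ± 1.91) came next and did not differ beyond their spread. Tnfsf11 (2.32 ± 0.695) and Atp6v0d2 (2.15 ± 0.856) were also within each other's spread, and Tnfrsf11a (0.667 ± 0.133), Dcstamp (0.528 ± 0.257), Ocstamp (0.452 ± 0.164) and Oscar (0.215 ± 0.119) were lowest, the first 3 of these within the spread of their neighbours. In the mutants Ctsk was still first at 17.8 ± 4.39 CPM per kb, and Nfatc1 at 7.21 ± 0.593 and Acp5 at 7.17 ± 1.03 were level. Tnfrsf11a at 1.11 ± 0.118 was then above Tnfsf11 at 0.342 ± 0.18.

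In GENCODE M21 on GRCm38 (mm10), the genes called lower lie on different chromosomes. Ctsk spans chromosome 3 from 95499256 to 95509362 (plus strand), Acp5 chromosome 9 from 22126727 to 22135711 (minus), Atp6v0d2 chromosome 4 from 19876841 to 19922605 (minus) and Ocstamp chromosome 2 from 165393760 to 165400405 (minus). Dcstamp lies on chromosome 15 from 39745930 to 39760938 (plus) and Tnfsf11 on chromosome 14 from 78277445 to 78308043 (minus). Tnfrsf11a, the gene called higher, spans chromosome 1 from 105780718 to 105847981 (plus).

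By edgeR's quasi-likelihood test with all 6 libraries, no tested relative of Atp6v0d2 or Ctsk was called lower. For this list and those below, the shares over all tested genes were 24.1% called higher and 21.7% called lower. Of 20 V-ATPase subunits and accessory genes, 19 were tested, 7 rose, none fell and 12 did not pass (median log2 fold change 0.19), with 1 lower at an unadjusted p under 0.05. That gene, Atp6v1c1 (-0.18, SE 0.07, adjusted p = 0.0661), chosen after its values were seen, was called lower by the DESeq2 Wald test (adjusted p = 0.0365) and by edgeR without replicate 1 of both groups (adjusted p = 0.0485). The count of subunits called higher was 8 with the Y-linked covariate. Atp6v0d1, the widely expressed d subunit, was 69.1, 89.9 and 84.9 CPM in the controls and 91.9, 90.7 and 89 in the mutants (0.15, SE 0.1, edgeR adjusted p = 0.243), and with the Y-linked covariate it was called higher (0.38, adjusted p = 0.0273). Within a library the log2 ratio of Atp6v0d2 to Atp6v0d1 was -3.88 ± 0.48 in the controls and -8.73 ± 0.95 in the mutants (SD, n = 3 each). The rises among the subunits were led by Atp6v0a4 (3.9, SE 0.29), Atp6v1c2 (3.48, SE 0.51) and Atp6v1b1 (2.04, SE 0.25), forms found in specialised epithelia. The other 4 rises were smaller, from 0.27 to 0.57, and included the catalytic subunit Atp6v1a (0.39, SE 0.07). Epithelium markers rose in the same libraries, 8 of 8 (Epcam, Cdh1, Krt5, Krt14, Krt8, Krt18, Krt15 and Trp63), summing to 949 to 1588 CPM in the controls and 5024 to 5665 in the mutants. Of these 8, 6 were called with the Y-linked covariate, Epcam (0.51, adjusted p = 0.205) and Trp63 (0.33, adjusted p = 0.154) being lost. Both were also lost without mutant replicate 1 (adjusted p = 0.0535 and 0.0671), and Trp63 without control replicate 3 (0.0602) or mutant replicate 2 (0.0565) or 3 (0.066). Krt8 rose by 2.02 (SE 0.12) and Krt15 by 2.49 (SE 0.23), and the part of the epithelial level in the subunit rises was not tested. Atp6v0c, a subunit that all cells use, had 0.0745 CPM or less in every library, so its counts may have been lost in the authors' counting and it was not tested.

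Of 10 other cathepsins, 7 rose, none fell and 3 did not pass (median 0.63) by edgeR's test, with 0 lower at an unadjusted p under 0.05. Ctsz, chosen after its values were seen, was called lower without control replicate 1 (-0.22, adjusted p = 0.0348) and without replicate 1 of both groups (-0.22, adjusted p = 0.0249). Macrophage markers, whose cells are rich in lysosomal proteases, summed to 87.8 to 153 CPM in the controls and 383 to 477 in the mutants, and their part in the cathepsin rises was not tested. Ctss, a cathepsin of antigen-presenting cells, rose from 9.2 ± 1.67 to 34.4 ± 8.2 CPM (SD, n = 3 each; log2 fold change 1.9, SE 0.22, edgeR adjusted p = 0.000689). Ctsb, a general lysosomal protease, rose by 0.64 (SE 0.1), Ctsc by 1.32 (SE 0.12) and Ctsh by 1.49 (SE 0.24). Among the other 4 NFAT genes Nfat5 (0.34, SE 0.08) and Nfatc2 (0.49, SE 0.13) rose, and the other 2 did not pass. Of these, Nfatc4 (-0.22, SE 0.08, edgeR adjusted p = 0.0502), chosen after its values were seen, had every mutant below every control and an unadjusted p of 0.023. It was called lower in 6 of the 19 alternatives: DESeq2 size factors (adjusted p = 0.0498), the DESeq2 Wald test (0.0251), limma-voom (0.0483), thinned counts (0.0487), and without control replicate 1 (0.0221) or replicate 1 of both groups (0.0108). The call on Nfatc2 was lost without control replicate 3 (adjusted p = 0.0518) or mutant replicate 2 (adjusted p = 0.0519), and that on Nfat5 with the Y-linked covariate (adjusted p = 0.134).

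**Figure D4:**
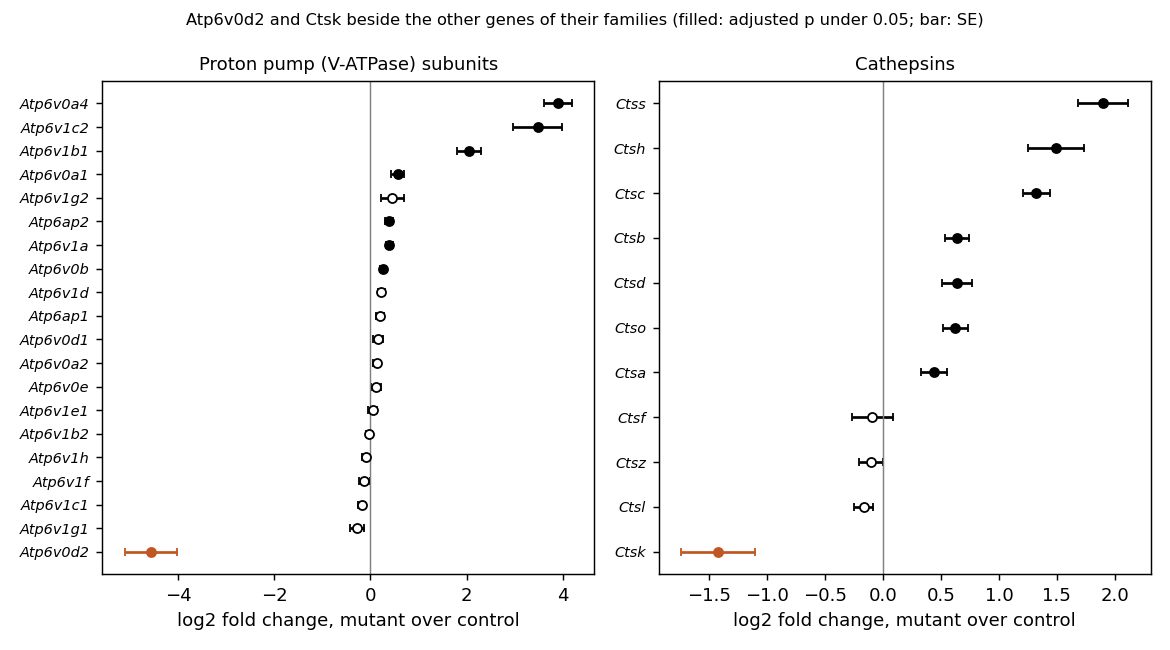
Log2 fold change of mutant over control with SE (horizontal axis) for V-ATPase subunits at left and cathepsins at right, with filled circles where the adjusted p was under 0.05 and the osteoclast gene in orange. Atp6v0d2 at -4.56 and Ctsk at -1.42 are the genes called lower in their panels.

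Most other genes used by osteoclasts did not pass the test. Of 14, 13 were tested, of which Mmp9 fell, Plekhm1 and Ostm1 rose and 10 did not pass (median 0.11). The call on Plekhm1 was lost with the Y-linked covariate (0.29, adjusted p = 0.0673), when 1 of the 13 was called higher. Mmp9, a gelatinase that osteoclasts make in quantity, was 74, 107 and 112 CPM in the controls and 8.54, 13.9 and 17.3 in the mutants (-2.88, SE 0.28, edgeR adjusted p = 0.000426). Slc9b2, chosen after its values were seen, did not pass (-0.95, SE 0.37, edgeR adjusted p = 0.0693), though every mutant was below every control. The DESeq2 Wald test called it lower (adjusted p = 0.0399). Of the 13 genes, 2 had every mutant below every control and 3 had every mutant above. Plekhm1, which helps to traffic lysosomes to the ruffled border (0.37, SE 0.07), and Ostm1, the partner of a chloride antiporter there (0.65, SE 0.13), are made by many other cells too. Without replicate 1 of both groups all 14 were tested and 3 were called lower. Ckb (-0.25, edgeR adjusted p = 0.0258), chosen after its values were seen, and Slc9b2 (-1.37, adjusted p = 0.0215) joined Mmp9. In that setting 4509 of all 16824 tested genes were called lower.

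Genes of signalling downstream of RANK and its costimulators rose or did not pass. Of 25, 24 were tested, 14 rose, none fell and 10 did not pass (median 0.37) by edgeR's test, with 1 lower at an unadjusted p under 0.05. The count called higher was 12 with the Y-linked covariate and 10 without mutant replicate 3. Bcl6, a repressor of osteoclast genes, was 7.99, 8.66 and 8.65 CPM in the controls and 23.6, 22.6 and 22.9 in the mutants (1.45, SE 0.1, edgeR adjusted p = 0.000234). Irf8, which restrains Nfatc1 in macrophages, rose from 4.55 ± 1.14 to 12.8 ± 0.481 CPM (SD, n = 3 each; 1.49, SE 0.21). Plcg2, the phospholipase of the costimulatory branch, rose by 1.19 (SE 0.19). Tnfsf10 (TRAIL), another ligand of osteoprotegerin, rose from 0.378 ± 0.0696 to 2.2 ± 0.965 CPM (2.54, SE 0.42). Prdm1, which represses Bcl6 and Irf8 in osteoclasts (-0.4, SE 0.17, adjusted p = 0.088), did not pass. It was chosen after its values were seen.

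Macrophage markers, of the lineage that supplies osteoclast precursors, rose in the same libraries. Of 14, 13 rose (12 with the Y-linked covariate), none fell and 1 did not pass (median 1.68), and their summed level was 87.8 to 153 CPM in the controls and 383 to 477 in the mutants, with no marker at 0 in any library. Fcgr3, an antibody receptor, rose from 3.19 ± 0.929 to 15.7 ± 0.154 CPM (SD, n = 3 each; 2.29, SE 0.23, edgeR adjusted p = 0.000479). Cx3cr1 rose by 1.7 (SE 0.15), Lyz2 by 2.89 (SE 0.35) and Ptprc by 1.6 (SE 0.17). Against the summed macrophage counts of the same library, the log2 ratio of Ctsk was -0.86 ± 0.31 in the controls and -4.04 ± 0.21 in the mutants, that of Acp5 -2.16 ± 0.22 and -4.91 ± 0.24, and that of Atp6v0d2 -4.49 ± 0.3 and -10.99 ± 0.82. For Tnfrsf11a, whose CPM was higher in the mutants, the ratio was lower, -4.97 ± 0.17 in the controls and -6.03 ± 0.26 in the mutants, since the markers rose by more. The part of the macrophage level in the rise of Tnfrsf11a was not tested.

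In the colony-stimulating factor axis 2 of the 3 receptor genes rose. Csf1r, the receptor that macrophages and osteoclast precursors share, rose from 24.9 ± 6.46 to 78.2 ± 16.5 CPM (SD, n = 3 each; 1.65, SE 0.23, edgeR adjusted p = 0.00152), and Csf2rb rose by 1.77 (SE 0.31). The other 3 of these 5 genes did not pass. The third receptor gene, Csf2ra, chosen after its values were seen, had groups that overlapped (0.14, SE 0.1, adjusted p = 0.282). The ligand Csf1, likewise chosen after its values were seen, was 22.5, 50 and 50.8 CPM in the controls and 54.7, 42.7 and 40.8 in the mutants (0.16, SE 0.29, adjusted p = 0.678). Csf1 was called lower when replicate 1 of both groups was left out (-0.28, adjusted p = 0.0101).

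Osteoblast markers, of cells that can present RANK ligand, fell beside Tnfsf11. Of 14, 13 were tested, 11 fell, none rose and 2 did not pass (median -2.15). Runx2 (-1.3, SE 0.18), Pth1r (-1.54, SE 0.23), Phex (-2.99, SE 0.51) and Ifitm5 (-3.8, SE 0.66) had the smallest p. Mepe had no count in any mutant and Col1a1 did not pass (0.09, SE 0.4). With the Y-linked covariate 5 of the 13 were called lower and 1 higher, which was Col1a1 (1.24, edgeR adjusted p = 0.0314). Ibsp, called lower without the covariate (-5.51, SE 1.08), was not called with it (-3.68, edgeR adjusted p = 0.05). Without mutant replicate 2 the count lower was 7. The part of the osteoblast level in the fall of Tnfsf11 was not tested. Lymphocytes can also make RANK ligand, but their markers were near the limit: Cd3d, Cd3e and Cd8a had 0.0363 CPM or less in every library, and 5 of the 10 markers had too few counts to be tested. Of the 8 palate mesenchyme markers 3 fell, Msx1 (-2.07, SE 0.14), Pdgfra (-0.51, SE 0.12) and Twist1 (-0.44, SE 0.11), and 5 did not pass. With the Y-linked covariate the calls on Pdgfra (adjusted p = 0.122) and Twist1 (adjusted p = 0.0633) were lost, and Osr2 was called lower (-0.59, adjusted p = 0.00685).

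A search over 12984 genes for the profile most like the mean of Acp5, Ctsk, Dcstamp, Ocstamp and Atp6v0d2 over the 6 libraries gave Suclg1, Prorsd1, Nsun2, Urod and Ewsr1, with Pearson r from 0.995 to 0.997 on log2 CPM. These are genes of general metabolism and RNA handling, and their own log2 fold changes were small, from -0.79 for Prorsd1 to -0.24 for Suclg1. The 6 points share the difference between genotypes, and 564 genes had an r over 0.95, so likeness of profile over these libraries does not single out a gene.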

How the data were processed

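Per the deposited files, each of the 6 libraries has 1 table of whole-number read counts for 23420 gene symbols, made by the authors. The submitters' processing notes name HISAT2, StringTie and the builds mm9 and mm10, with no version. How reads were assigned to genes, and with which annotation and strand setting, is not recorded in the labels or headers. Even values made up 63.6% to 73% of counts between 5 and 50 in 5 libraries and 99.7% in mutant replicate 1, as if mates of a pair had been counted singly, which makes counting limits optimistic.

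The deposited counts were fitted unchanged in edgeR 4.0.16 (R 4.3.3) with filterByExpr, TMM scaling and the quasi-likelihood F test of mutant against control over all 16604 tested genes, without covariates, with Benjamini-Hochberg adjustment. Each SE was computed as the size of the log2 fold change over the square root of F. The fit was tested on simulated data. Alternatives were limma-voom (limma 3.58.1), DESeq2 1.42.0 with its Wald test or its size factors, and upper quartile or library size scaling. Others were a filter of 1 CPM in 3 libraries or none, a 1.5-fold threshold and each library left out. Replicate 1 of both groups was also left out, and a replicate block, halved counts and thinned counts were used. A further fit took as covariate the log2 of the summed CPM of Ddx3y, Eif2s3y, Kdm5d and Uty. The p-values measure the spread between 3 libraries per group, which may be partly technical. No pair of libraries agreed within sampling noise.

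The members and gene lists were chosen with earlier results of these data known. Named genes are the 10 members, Shox2, up to 4 called genes of each list by smallest p (or 2 where none was called) and the 5 genes most like the osteoclast profile, while Xist, Ddx3y, Ibsp, Mepe, Col1a1, Atp6v0d1, Atp6v0c, Cd3d, Cd3e, Cd8a and the genes marked so in the text were added after their values were seen. Lists cover other osteoclast genes, RANK signalling, the colony-stimulating axis, V-ATPase subunits, cathepsins, NFAT genes, and markers of macrophages, osteoblasts, lymphocytes, epithelium and palate mesenchyme. A result that the naming rule selects is left out here. Spi1 and Adgre1 carry older symbols in the files. Exon lengths and positions are from GENCODE M21, and promoter sequences from RefSeq on GRCm38.p6.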

Additional observations from a re-analysis of the deposited data

How the results depend on the processing

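Of the 10 genes, Dcstamp, Ocstamp, Atp6v0d2 and Tnfsf11 were called lower in every alternative that tested them, 18 for Dcstamp and 19 for the others. Across the 19 alternatives, the number called lower ranged from 4 (against a 1.5-fold change, and with the Y-linked covariate) to 8 (without replicate 1 of both groups). Without replicate 1 of both groups, 4509 of all 16824 tested genes were called lower. Leaving out each library in turn gave 5 to 7 called lower and 0 to 1 called higher. Against a 1.5-fold change 0 of the 10 genes were called higher, and over all genes 505 were lower and 1967 higher, because that threshold asks for a larger change. With the Y-linked covariate 2 of the 10 genes were called higher and 2315 of all genes lower. Leaving out each library in turn put the Tnfrsf11b estimate between -0.42 and 0.12. That estimate, -0.08 with all libraries, turned positive without control replicate 2 (0.12), without control replicate 3 (0.11), with the replicate block (0.032) and with the Y-linked covariate (0.75), and the cause was not tested. With the replicate block 6 of the 10 genes were lower and 1 higher, as without it. Samples of the same number correlated at 0.0808, 0.0824 and 0.0199 in their deviations from the group means, and not every sample correlated best with its own number, so the numbers were not taken to pair the libraries. Halving the counts or thinning every library to 52668242 counts left 6 called lower and 1 higher. With the 1 CPM filter Dcstamp and Oscar were not tested and 5 were called lower. Depth limits Dcstamp, Ocstamp and Oscar in the mutants, where 3 counts are worth 0.0545 to 0.0558 CPM.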
